A study of Mus musculus with 6 samples.

Results

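The genes described here encode the proteasome: its core and regulatory subunits, its activators and inhibitor, and its assembly chaperones. They were taken as every gene whose platform symbol is Psm followed by a letter from a to g and a number, named alone by at least 1 probe set, which gave 46 of the 12393 genes on the array. Of these, 4 belong to the immunoproteasome (Psmb8, Psmb9, Psmb10 and Psme1) and 42 do not. Psme2, the remaining immunoproteasome gene of interest, shares its only probe set with Psme2b and was left out, and Psmb11 had no probe set that named it.

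RNA from 6 lines of mouse embryo fibroblasts, primary connective tissue cells explanted from embryos and cultured here for 2 passages, was measured on 1 array per line. The unstable group, labelled as chromosomally unstable, held 2 BubR1 H/H lines with a hypomorphic allele of a spindle checkpoint kinase and 1 CDC20 AAA/AAA line with a mutated mitotic activator, an allele that the labels also class as hypomorphic. The stable group held 2 BubR1 +/+ lines and 1 CDC20 +/+ line, all labelled wild type at both loci, and each mutant line was labelled wild type at the other locus. The numbers 9515, 9938 (both BubR1) and 10074 (CDC20) each name 1 unstable and 1 stable line, called a pair here. Only pair 10074 carries the CDC20 mutation, and separate embryos are not stated as the origin of the lines, so that p-values describe only how these lines varied. The median log2 value of an array was 6.156 to 6.196. All 12 fibroblast markers examined, among them Col1a1, Col3a1 and Vim, were at a log2 value of at least 4 on every array. So were 18 of the 19 macrophage and leukocyte markers with a probe set. The 9 lymphocyte markers with a probe set were below that value on all arrays, as were 4 of 6 endothelial markers.

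The proteasome degrades proteins tagged with ubiquitin. Its 20S core is a stack of alpha and beta rings, with the protease sites on beta subunits, and a 19S cap made of a base and a lid recognises, unfolds and feeds in the substrate. Under interferon, the catalytic subunits encoded by Psmb5, Psmb6 and Psmb7 are replaced in new cores by those of Psmb8, Psmb9 and Psmb10, which alters the peptides available for MHC class I presentation, and the PA28 activator encoded by Psme1 and Psme2 is induced. Expression of the constitutive subunits is known to be adjusted together by the transcription factor encoded by Nfe2l1.

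In the RefSeq gene order of GRCm38.p6, Psmb9, Tap1, Psmb8 and Tap2 follow one another on chromosome 17 inside the MHC, whereas Psmb10 lies on chromosome 8, and Psme1 lies on chromosome 14 with Psme2 as the second gene after it. The 250 bases before the RefSeq start (GRCm38.p6, written 5′ to 3′ on the gene's strand) are shown for the 4 measured immunoproteasome genes, which were higher in most unstable lines, and for Psmb5, the counterpart of Psmb8, which was not. Capitals mark matches, on either strand, to the core of the interferon-stimulated response element (GAAANNGAA), the gamma-activated site of interferon-responsive genes (TTCNNNGAA), the antioxidant response element bound by the Nfe2l1 family (TGACNNNGC) or the CCAAT box.
Psmb8, chr17:34197945-34198194, plus strand: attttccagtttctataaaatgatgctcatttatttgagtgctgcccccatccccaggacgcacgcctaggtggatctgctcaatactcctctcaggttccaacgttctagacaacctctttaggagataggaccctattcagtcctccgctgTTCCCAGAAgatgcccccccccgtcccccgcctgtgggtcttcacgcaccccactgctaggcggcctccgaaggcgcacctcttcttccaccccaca
Psmb9, chr17:34187331-34187580, minus strand: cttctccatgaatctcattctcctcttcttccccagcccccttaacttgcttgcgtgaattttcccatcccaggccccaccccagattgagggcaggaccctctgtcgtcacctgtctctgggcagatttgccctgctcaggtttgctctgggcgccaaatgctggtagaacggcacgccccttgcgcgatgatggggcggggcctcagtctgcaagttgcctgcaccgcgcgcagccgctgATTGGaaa
Psmb10, chr8:105938393-105938642, minus strand: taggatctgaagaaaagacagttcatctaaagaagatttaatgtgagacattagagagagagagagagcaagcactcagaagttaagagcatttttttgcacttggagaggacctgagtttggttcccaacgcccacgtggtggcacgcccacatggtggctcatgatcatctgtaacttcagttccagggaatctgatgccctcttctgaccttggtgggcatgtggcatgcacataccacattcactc
Psme1, chr14:55578244-55578493, plus strand: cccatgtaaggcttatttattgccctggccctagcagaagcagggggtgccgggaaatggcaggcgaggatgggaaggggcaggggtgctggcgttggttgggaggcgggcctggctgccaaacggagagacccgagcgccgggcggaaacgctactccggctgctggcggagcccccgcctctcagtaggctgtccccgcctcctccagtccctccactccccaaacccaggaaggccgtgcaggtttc
Psmb5, chr14:54617996-54618245, minus strand: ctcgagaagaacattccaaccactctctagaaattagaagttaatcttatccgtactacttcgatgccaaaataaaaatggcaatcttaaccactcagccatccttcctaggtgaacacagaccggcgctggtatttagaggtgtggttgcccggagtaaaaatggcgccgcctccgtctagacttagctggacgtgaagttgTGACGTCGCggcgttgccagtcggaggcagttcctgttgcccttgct

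Psmb8 held 1 gamma-activated site match, TTCCCAGAA, at positions -97 to -89 counted from the start, a motif matched in 7.02% of all 32851 promoter windows of the same length. Psmb9 held 1 CCAAT box match on the strand opposite to the gene, at positions -8 to -4, which 33.8% of all windows also held. In Psmb5 there was 1 antioxidant element match, TGACGTCGC, at positions -47 to -39, beside 10.2% of all windows. The windows of Psmb10 and Psme1 held 0 matches, and the response element core, present in 7.13% of all windows, was in 0 of the 4 immunoproteasome windows. Each of the 3 matches lay in a different window, so none overlapped. Psmb9 and Tap1 start back to back: with 50 bases after each start included, their windows share 275 bases on opposite strands. Among the other members that passed the filter on low values, 34 genes had windows, 36 in all, of which 5 held the antioxidant element and 1 the gamma-activated site. The windows differed in base composition, from 46.8% G and C in Psmb10 to 66.8% in Psme1, beside a median of 52.4% over all windows.

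The comparison asked whether proteasome transcripts differ between chromosomally unstable and stable fibroblasts, and whether immunoproteasome genes differ from the rest. Psmb8, Psmb10 and Psme1 were higher in the unstable line of every pair by small amounts, with group differences (unstable minus stable means) of 0.32, 0.11 and 0.17 on the log2 scale. The other members had a median group difference of -0.034, and most of their shift to lower values lay in pair 9938. Levels of the measured immunoproteasome genes, Psmb6 and Psmb7 differed more between the stable lines of the pairs than between the lines of a pair. No member passed the test over all genes.

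Psmb8, the immunoproteasome form of the chymotrypsin-like subunit, measured 4.92, 6.12 and 6.34 in the unstable lines 9515, 9938 and 10074, and 4.74, 5.79 and 5.89 in the stable lines. The groups overlapped, because both lines of pair 9515 lay below the other 4. Within pairs the unstable line was higher by 0.19, 0.33 and 0.44, and the group means were 5.79 ± 0.76 and 5.47 ± 0.64 (SD, n = 3 lines each), a 1.25-fold difference. By limma without the pairs this difference had an SE of 0.47 and a 95% interval from -0.83 to 1.47 (adjusted p = 0.999). A fit with pairs as blocks gave an interval of 0.085 to 0.56, with an unadjusted p = 0.017 by limma and an adjusted p = 0.318, so the gene did not pass. Without the stable line of pair 9515 the unpaired difference was -0.0465, since the lone unstable line of that pair then stood against lines with higher levels. Without both lines of pair 9515 it was 0.39.

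Psmb10, the immunoproteasome form of the trypsin-like subunit, measured 8.70, 9.14 and 9.23 in the unstable lines 9515, 9938 and 10074 and 8.58, 8.98 and 9.18 in the stable lines. The unstable line was higher by 0.12, 0.16 and 0.046 within these pairs, and again pair 9515 was the lowest of the 3. Group means were 9.02 ± 0.28 and 8.91 ± 0.31 (SD, n = 3 lines each). The group difference of 0.11 had an SE of 0.21 (adjusted p = 0.999 by limma). Without the stable line of pair 9515 it was -0.059, and without both lines of that pair 0.1025.

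Psme1, a subunit of the PA28 activator, measured 10.13, 10.30 and 10.58 in the unstable and 9.97, 10.13 and 10.41 in the stable lines 9515, 9938 and 10074. Its differences were nearly the same in all pairs, at 0.16, 0.17 and 0.17, and the group means were 10.34 ± 0.23 and 10.17 ± 0.23 (SD, n = 3 lines each), a 1.12-fold difference. The 95% interval was -0.25 to 0.58 without the pairs and -0.035 to 0.37 with pairs as blocks, and neither fit called the gene (adjusted p = 0.999 and 0.478 by limma).

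Psmb9, the immunoproteasome form of the caspase-like subunit, lay near the log2 floor of 4 used here as the lowest level trusted. It measured 3.15, 3.69 and 4.14 in the unstable and 2.94, 4.03 and 3.76 in the stable lines 9515, 9938 and 10074. With only 2 arrays at or above the floor it did not pass the filter and was not tested. Its pair differences of 0.21, -0.34 and 0.39 did not share a sign, unlike those of Psmb8, Psmb10 and Psme1.

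**Figure D1:**
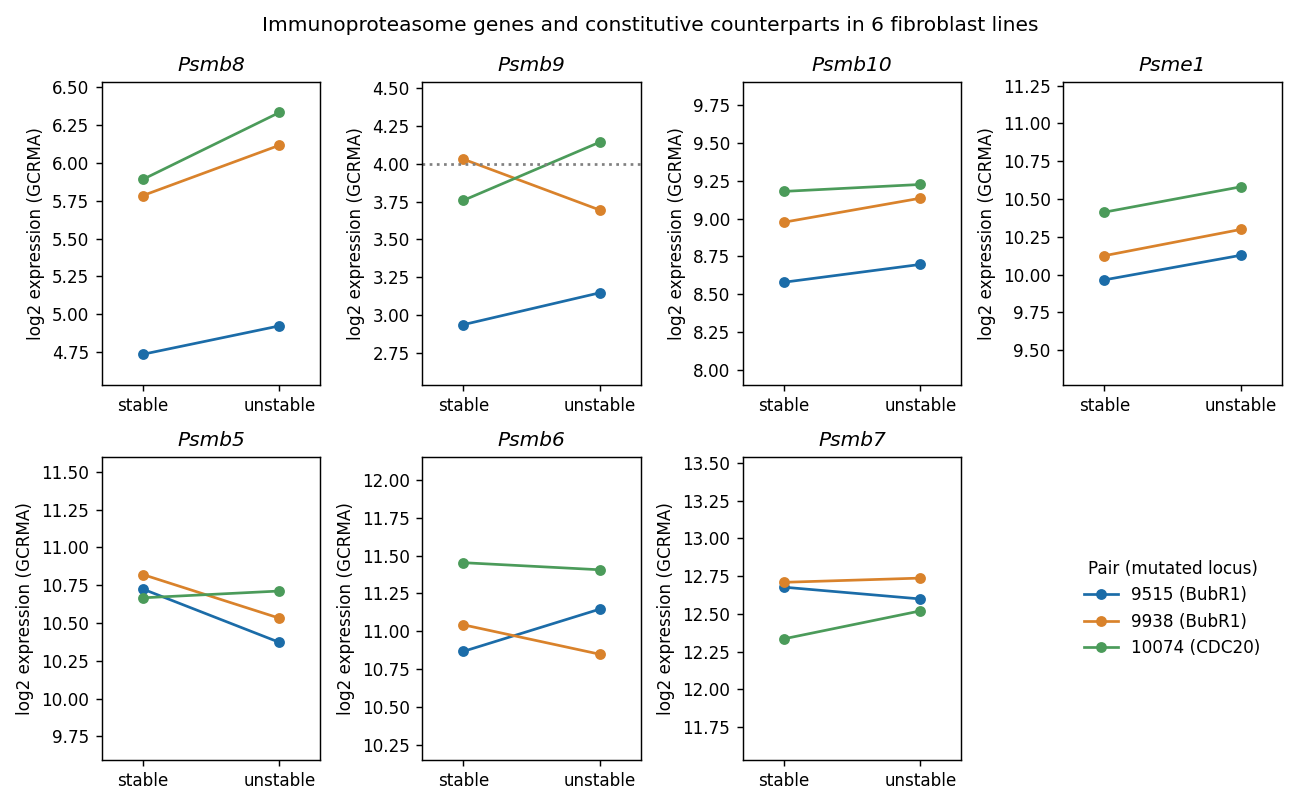
Log2 expression of 4 immunoproteasome genes (upper row) and 3 constitutive catalytic counterparts (lower row) in the stable and unstable line of each pair; each line joins 1 pair, all panels span the same range, and the dotted line marks the floor of 4. Psmb8, Psmb10 and Psme1 slope upward in all 3 pairs, and Psmb8 of pair 9515, at 4.74 and 4.92, lies apart from the other pairs.

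The constitutive counterparts did not move in step with them. Psmb5, the chymotrypsin-like subunit, measured 10.37, 10.53 and 10.71 in the unstable and 10.73, 10.82 and 10.67 in the stable lines 9515, 9938 and 10074. It was thus lower in both BubR1 H/H lines, by 0.35 and 0.29, and higher by 0.045 in the CDC20 AAA/AAA line. The CDC20 side is 1 pair, and no member passed the test between the CDC20 and BubR1 effects. Its group difference was -0.20 with an SE of 0.12 (adjusted p = 0.999 by limma). Psmb6, the caspase-like subunit, had pair differences of 0.28, -0.20 and -0.047, and Psmb7, the trypsin-like subunit, of -0.078, 0.028 and 0.19. Neither gene kept a sign across pairs, and their group differences were 0.013 and 0.045.

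Probe sets of different genes are not on a common scale, so their levels were not set against each other, but differences between lines can be. The pair difference of Psmb8 exceeded that of Psmb5 by 0.54, 0.62 and 0.40 in pairs 9515, 9938 and 10074. For Psmb10 against Psmb7 the excess was 0.20, 0.13 and -0.14, and for Psmb9 against Psmb6 it was -0.069, -0.14 and 0.43. Only the first of these exchanges therefore had the same sign in all 3 pairs, and none was tested as a score.

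For most of these genes the larger contrast was between pairs. In stable lines alone, Psmb8 was 1.05 higher in pair 9938 and 1.16 higher in pair 10074 than in pair 9515, against a largest difference of 0.44 within a pair. For Psmb9 the stable lines of pairs 9938 and 10074 were 1.10 and 0.82 above that of pair 9515, and for Psmb10 they were 0.40 and 0.60 above it. The range over stable lines also exceeded the largest pair difference for Psme1 (0.45 against 0.17) and for the constitutive Psmb6 (0.59 against 0.28) and Psmb7 (0.37 against 0.19), but not for Psmb5 (0.15 against 0.35). Lines of a pair deviated together across all genes tested (correlations 0.602 to 0.812). The share of all genes with such a range was not counted. Psmb8 spanned 1.60 log2 units over the 6 lines, a range that 6.80% of all genes tested reached. The other members that passed the filter spanned 0.096 to 0.75, with a median of 0.44 beside 0.47 for all genes tested.

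Several other lists also had their lowest means in pair 9515. MHC class I processing genes were at 9.48 and 9.60 in its stable and unstable lines, beside 9.68 to 9.87 in the other lines. Fibroblast markers were at 11.408 and 11.578, beside 11.580 to 11.863. Macrophage and leukocyte markers had their lowest means in that pair too. The mean log2 value of the 19 markers with a probe set was 7.43 and 7.25 in the stable and unstable lines of pair 9515, 9.84 and 9.99 in pair 9938, and 9.83 and 8.80 in pair 10074. Their means thus ranged from 7.43 to 9.84 in the stable and from 7.25 to 9.99 in the unstable group, and of all 19 only Itgam was below the floor on every array. In such bulk samples, fewer cells of a type and less RNA per cell cannot be told apart. The part of these cells in the level of Psmb8 and Psmb9 was not tested. Of the 18 markers that passed the filter, 6 were higher in the unstable line of pair 9515, 13 in that of pair 9938 and 0 in that of pair 10074, with medians of -0.18, 0.18 and -1.07. Psmb8, Psmb10 and Psme1 were higher in the unstable line of all 3 pairs, while Psmb9, near the floor, was at 0.21, -0.34 and 0.39. Whether the markers bear on these differences was not tested.

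The difference between the CDC20 and the BubR1 effects was tested in a model with a mean for each genotype and 2 residual degrees of freedom. It was 0.18 for Psmb8, with a 95% interval from -2.79 to 3.15, and -0.0005 for Psme1, with an interval from -0.63 to 0.63. That model takes in the level differences between pairs; with pairs as blocks and 1 residual degree of freedom the intervals were -0.37 to 0.73 for Psmb8 and -0.53 to 0.53 for Psme1. Both are wider than the effects themselves, so they do not show that the 2 kinds of mutant had effects of similar size. Of all genes tested 0% passed at an adjusted p under 0.05 in this limma contrast, and 1.59% had an unadjusted p under 0.05, or 5.68% with pairs as blocks. Among the members that passed the filter each of these counts was 0 of 44.

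Over the 44 members that passed the filter, 0 passed limma's test at an adjusted p under 0.05, as did 0% of the 8382 genes tested. Unadjusted p-values under 0.05 were found for 2 members, Psme3 and Psmg1, both lower in unstable lines, beside 4.28% of all genes tested. With pairs as blocks, 0 members passed after adjustment and the lowest adjusted p was 0.307; 4 had an unadjusted p under 0.05, Psmb8 higher and Psma3, Psme3 and Psmg1 lower, beside 12.2% of all genes. Their number was close to the background share in both fits.

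By direction alone, 12 of the 44 members (27.3%) were lower in all 3 pairs, beside 19.3% of all genes, and 6 (13.6%) were higher in all 3 pairs, beside 16.9%. The 6 were the 3 immunoproteasome genes together with Psmb3, Psmd8 and Psmf1, of which Psmb3 had a second probe set that was lower in all 3 pairs. In 4 members, Psmc2, Psmd5, Psme3 and Psmg1, every unstable line lay below every stable line (9.09%, beside 6.41% of all genes), and in 0 members did every unstable line lie above, beside 3.54% of all genes. Of the 41 other members that passed the filter, 27 had a group difference of at most 0.1 in either direction, as did 47.9% of all genes tested.

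**Figure D2:**
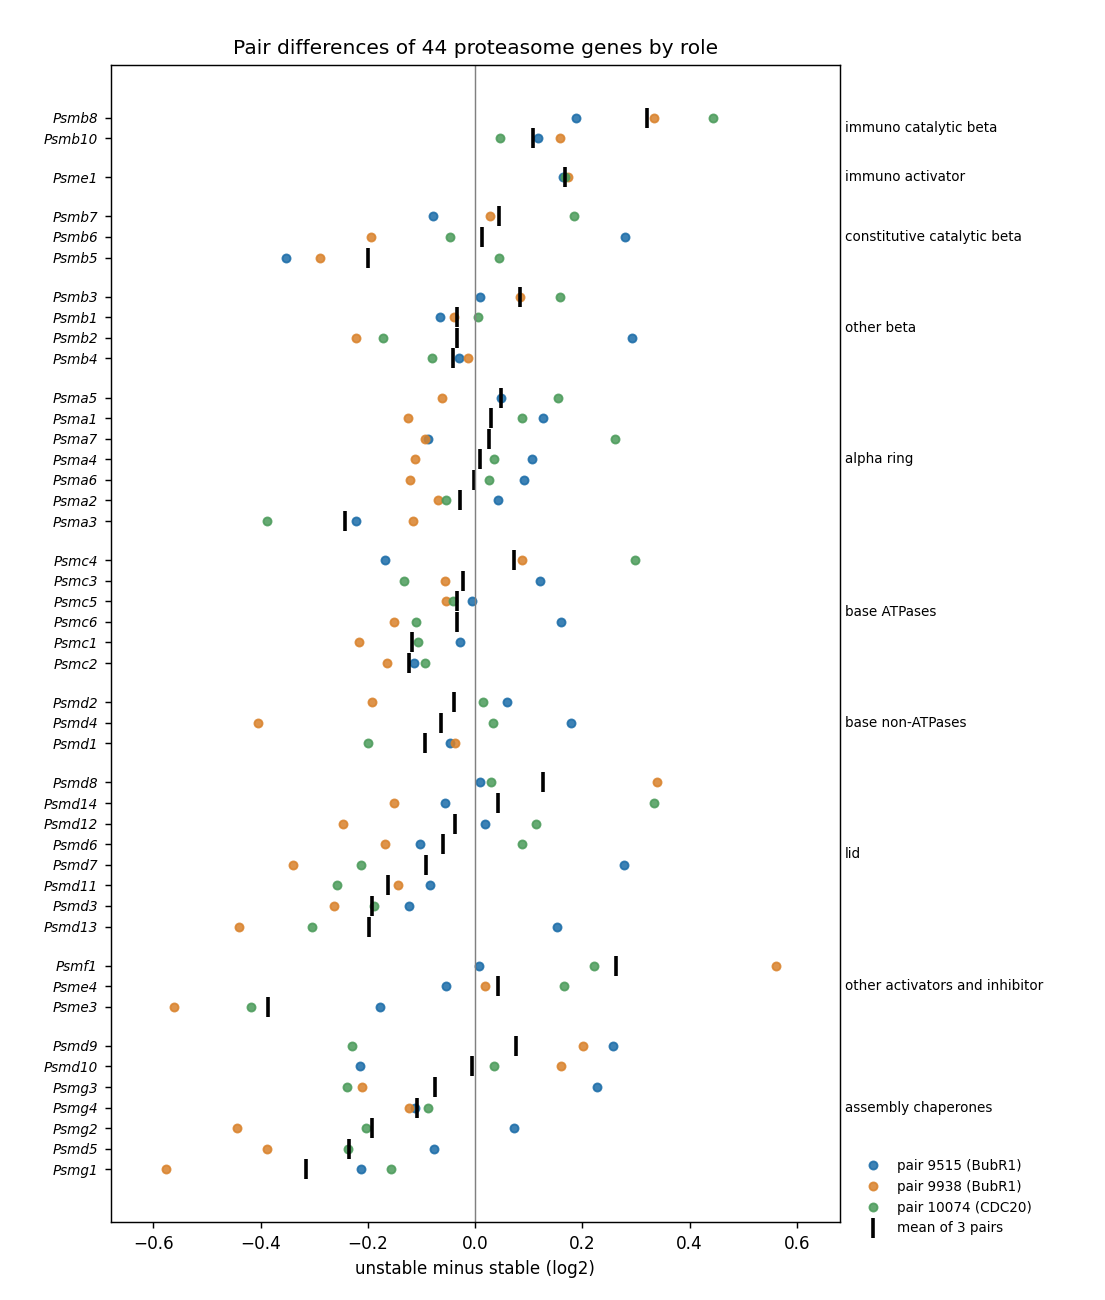
Unstable minus stable difference in log2 units for the 44 members that passed the filter, grouped by role; coloured points are the 3 pairs and black bars their mean. Most means lie within 0.1 of 0, the points of pair 9938 lie mostly to the left, and all points of Psmb8, Psmb10 and Psme1 lie to the right of 0.

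Lower values were most frequent in pair 9938. There 33 of the 44 members (75.0%) were lower in the unstable line, beside 50.4% of all genes tested in that pair. In pair 9515 it was 21 of 44, beside 49.5% of all genes, and in pair 10074 22 of 44, beside 54.5%. The median over the 41 other members was -0.005, -0.13 and -0.047 in pairs 9515, 9938 and 10074, beside 0.001, -0.003 and -0.027 for all genes tested. Without pair 9938, 20 of the 41 were higher over group means, whereas 13 were with all pairs and 8 without the unstable line of pair 10074.

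The 7 alpha ring genes that passed, whose products form the gate of the core, were all lower in pair 9938 and mostly higher in the other pairs, so that their median group difference was 0.0097. Psma3 had the lowest difference, -0.24, and measured 12.11, 12.11 and 12.28 in the unstable and 12.33, 12.22 and 12.67 in the stable lines 9515, 9938 and 10074. It was lower in every pair, with 1 unstable line above 1 stable line of another pair. Psma5 had the highest, 0.047, with pair differences of 0.048, -0.061 and 0.155. Psma8, the alpha subunit known from germ cells, was below the floor on all arrays, at 2.95 to 3.56, and was not tested.

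Of the 4 structural beta genes that passed, Psmb3 differed most upward, by 0.084, with pair differences of 0.009, 0.084 and 0.16, and Psmb4 most downward, at -0.041. Both had the same sign in every pair, at sizes below their standard errors of 0.115 and 0.084. A second probe set of Psmb3 was lower in all 3 pairs, at -0.034, -0.139 and -0.014.

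In the base of the 19S cap, 5 of the 6 ATPase genes, whose products unfold substrates, were lower over group means. Among all 8382 genes tested, 4368 were lower over group means. Of the 6 ATPase genes, 4, 5 and 5 were lower in pairs 9515, 9938 and 10074. Psmc2 had the lowest difference, -0.12, at 11.57, 11.57 and 11.57 in the unstable and 11.68, 11.74 and 11.67 in the stable lines 9515, 9938 and 10074. The groups did not overlap, yet a second probe set of Psmc2 differed by 0.031 in the other direction. Psmc4 had the highest, 0.073, with pair differences of -0.17, 0.088 and 0.30. All 3 non-ATPase base genes, which encode the scaffold and ubiquitin-receptor subunits, were lower over group means, from Psmd2 at -0.039 to Psmd1 at -0.094. All 3 were lower in pair 9938, but only Psmd1 was lower in pairs 9515 and 10074. Without pair 9938, Psmd2 was at 0.0375.

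In the lid, which removes ubiquitin chains, 6 of 8 genes were lower over group means (4368 of all 8382 genes tested), with a median of -0.076. In pairs 9515, 9938 and 10074, 4, 7 and 4 of the 8 were lower. Psmd13 had the lowest difference, -0.20, but its pair differences were 0.15, -0.44 and -0.31. The highest was that of Psmd8, 0.13, which measured 11.87, 11.83 and 12.22 in the unstable and 11.86, 11.49 and 12.19 in the stable lines 9515, 9938 and 10074. Its difference lay almost wholly in pair 9938, where the stable line was low. It was 0.0195 without that pair and -0.052 without that stable line alone.

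Psme3, which encodes the nuclear PA28 gamma activator of ubiquitin-independent degradation, had the lowest group difference of all members. It measured 8.94, 8.93 and 9.0 in the unstable and 9.12, 9.50 and 9.42 in the stable lines 9515, 9938 and 10074, and the groups did not overlap. The difference of -0.39 (SE 0.12, a 1.31-fold lower level) had a 95% interval from -0.68 to -0.088 by limma and an adjusted p = 0.999. A second probe set of Psme3 of nearly the same mean level, 9.07 against 9.15, gave pair differences of 0.14, -0.44 and 0.13 and a group difference of -0.057. The lower level of Psme3 was thus seen in all pairs with 1 probe set and in pair 9938 alone with the other. With the mean of its 3 probe sets the difference was -0.13, but the third was below the floor on all arrays, at a mean of 2.08.

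Psmf1, which encodes the inhibitor PI31, had the highest difference among the other members, 0.26 (SE 0.19, adjusted p = 0.999 by limma). It measured 8.54, 8.45 and 8.24 in the unstable and 8.53, 7.88 and 8.01 in the stable lines 9515, 9938 and 10074, so pair 9515 showed a difference of only 0.008. Its 4 probe sets above the floor all had higher group means in unstable lines, by 0.083 to 0.26.

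Assembly chaperones, which help the core and the base to form, were lower over group means in 6 of 7 genes, with a median of -0.11. Among all 8382 genes tested, 4368 were lower over group means. Of the 7 chaperone genes, 4, 5 and 6 were lower in pairs 9515, 9938 and 10074. Psmg1, part of a dimer that starts the alpha ring, measured 8.90, 8.72 and 8.78 in the unstable and 9.11, 9.29 and 8.94 in the stable lines 9515, 9938 and 10074. The groups did not overlap, and the pair differences were -0.21, -0.58 and -0.16. Its group difference of -0.31 (SE 0.12, a 1.24-fold lower level) had an adjusted p = 0.999 by limma. It had a single probe set, so it could not be set against another. Psmd9, a base chaperone, had the highest difference, 0.077, with pair differences of 0.26, 0.20 and -0.23.

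Probe sets of the same member often differed in direction. Of 17 members with at least 2 probe sets above the floor, 12 (70.6%) had probe sets with group differences of both signs, beside 36.0% of the 3337 other genes with several such probe sets. Psmb8, Psmb9, Psmb10 and Psme1 had 1 probe set each.

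**Figure D3:**
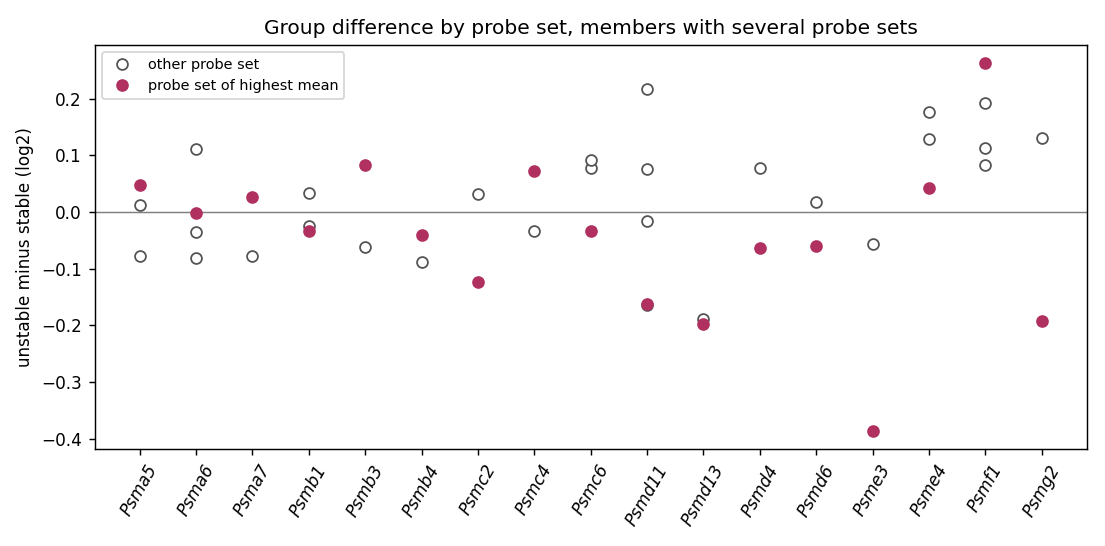
Unstable minus stable group difference in log2 units for each probe set above the floor, for the 17 members with several; filled points are the probe set of highest mean, used elsewhere, and open points the others. In 12 members the points lie on both sides of 0, and the 2 points of Psme3 lie at -0.39 and -0.057.

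Partners outside the symbol rule had group differences of -0.16 to 0.19. Of 16 tested partners and regulators 8 were higher and 8 lower over group means, with a median of -0.0038, and 0 passed (lowest adjusted p = 0.999 by limma; 0 at an unadjusted p under 0.05). Nfe2l1 had pair differences of 0.12, -0.027 and 0.009, and Pomp, the maturation factor of the core, of 0.22, -0.037 and -0.017. Zfand5, which encodes a proteasome-binding ubiquitin reader, was higher by 0.21, 0.17 and 0.21 and did not overlap between groups. Of 5 tested genes of ubiquitin supply and the p97 segregase 4 were lower over group means, with a median of only -0.009. In pairs 9515, 9938 and 10074, 1, 2 and 3 of the 5 were lower. Vcp, the segregase itself, was at -0.077, with pair differences of 0.001, -0.196 and -0.037.

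MHC class I processing genes included higher values without moving as a block. Of 16 tested genes 11 were higher over group means, beside 4009 of all 8382 genes tested, and 4 in all 3 pairs (25.0%, beside 16.9%). Their median was 0.053, with 0 past the test (lowest adjusted p = 0.999 by limma). The majority lay in pair 9515: 13, 8 and 7 of the 16 were higher in pairs 9515, 9938 and 10074. Their medians in these pairs were 0.13, 0.0025 and -0.0115. None (0 of 16) reached an unadjusted p under 0.05, whereas with pairs as blocks Tapbp and Tap2 did, beside 12.2% of all genes. Their adjusted p-values by limma were then 0.291 and 0.38. Tapbp, which encodes the peptide-loading chaperone tapasin, was higher by 0.28, 0.46 and 0.29 in pairs 9515, 9938 and 10074. Tap2, a subunit of the peptide transporter, was higher by 0.29, 0.25 and 0.15 at levels of 4.25 to 4.68. Tap1, the neighbour of Psmb9 and Psmb8, was at -0.062, 0.039 and 0.70, so its group difference of 0.23 lay in the CDC20 pair. It was -0.0115 without that pair. Leaving out only the unstable line of that pair gave -0.15, which also sets the level of its stable line against the other group. As for all genes, the difference between the CDC20 and BubR1 effects on Tap1 did not pass its test. B2m, the light chain of class I molecules, was at 0.25, 0.18 and -0.036.

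Interferon-response genes were higher by more. Of the 23 genes of that list with a probe set, 17 passed the filter. A gene can pass it through the 3 unstable lines alone, so the direction of those tested is not independent of the filter. All 17, a difference already known from earlier results of these data, were higher over group means, beside 4009 of all 8382 genes tested. Their medians within pairs 9515, 9938 and 10074 were 0.51, 0.71 and 1.55, with 0 past the test (lowest adjusted p = 0.999 by limma, or 0.262 with pairs as blocks). At an unadjusted p under 0.05 there were 4 of the 17, beside 4.28% of all genes, and with pairs as blocks 14, beside 12.2%. The medians of Psmb8, Psmb10 and Psme1 in the same pairs were 0.16, 0.17 and 0.17. Among interferon signalling factors 9 of 15 were higher over group means, beside 4009 of all 8382 genes tested. Irf9 was at 0.23, 1.16 and 1.48 (adjusted p = 0.999 by limma, or 0.299 with pairs as blocks). Irf1, a direct activator of immunoproteasome genes, was at 0.051, 0.015 and 0.041. Cxcl10, an interferon-induced chemokine gene, was at 0.73, 1.74 and 2.35. The interferon genes Ifng and Ifnb1 were below the floor on all arrays. Nlrc5 was not among the named probe sets used here.

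**Figure D4:**
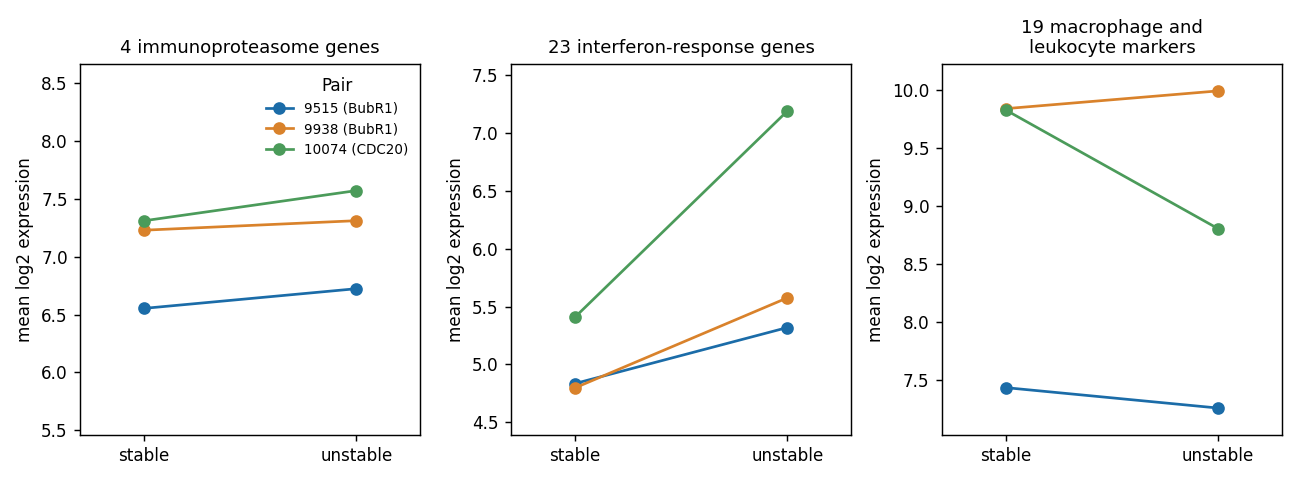
Mean log2 expression per line of the 4 immunoproteasome genes, 23 interferon-response genes and 19 macrophage and leukocyte markers with a probe set; lines join pairs and the panels span equal ranges. Pair 9515 is lowest for the immunoproteasome genes and the markers, whereas the unstable line of pair 10074 is highest for the interferon-response genes, at 7.19.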

How the data were processed

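Transcript levels were measured with Affymetrix arrays in 6 fibroblast lines. The deposited values are log2 values. R 2.15.3 and GCRMA 2.28.0 are named in the submitters' processing notes; GCRMA corrects background, normalizes arrays and summarizes probe sets, so overall brightness cannot be compared. The genome build behind them is not given in the sources used here. Probe sets with exactly 1 platform symbol were used, 20380 of 22626. Each gene was represented by its probe set of highest mean, and a gene entered the tests when 3 or more arrays read 4 or higher, which 8382 did. Differences were fitted across all genes with limma 3.58.1 in R 4.3.3 (two-sided), with no block term, and p-values were adjusted by Benjamini-Hochberg with a threshold of 0.05; the number of arrays limits the precision. A model with 4 genotype means gave the difference between the CDC20 and BubR1 effects. The fits were also run on simulated data, whose outcome is not given here. For the model with 4 genotype means these data held no level differences between pairs. They therefore do not show how that model performs on these lines. Promoter windows come from RefSeq, for 38 of 46 members.

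Same-numbered lines, paired by the sample titles, deviated together from their group means (correlations across genes 0.812, 0.681 and 0.602; different numbers -0.673 to 0.153), so a fit with pairs as blocks is quoted where it takes a named result past an unadjusted p of 0.05 or moves a count of such genes. Members, lists and tests were chosen with earlier results of these data known. Genes named are the immunoproteasome genes and their counterparts, the highest and lowest of each role, members at 0.3 or more with 1 sign, and the smallest p of each partner list beside fixed genes. Psmd5, Ifng and Ifnb1 were named after their values were seen. Alternatives were other filters, probe set rules and normalizations, a trended prior, array weights, the block, and leaving out lines or pairs.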

Additional observations from a re-analysis of the deposited data

How the results depend on the processing

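The count of genes past the threshold was 0 in both contrasts under every alternative run, which were other filters on low values, probe set rules, normalizations, priors and weights, the block, and leaving out lines or pairs; for the locus contrast, leaving out BubR1 lines was added after seeing the data, and leaving out a CDC20 line gives no value. With the replicate block, the pair number, the count was also 0, the median difference of the immunoproteasome genes tested was 0.17 and that of the other members -0.034, and the block changed no call. The immunoproteasome median was 0.138 without a filter, 0.138 with a floor of 6 and 0.174 with arrays centred on their medians. Leaving out lines or pairs gave -0.0465 (without the stable line of pair 9515) to 0.29 for it and -0.099 to -0.0055 for the other members. With only whole pairs left out, the immunoproteasome median was 0.1655 to 0.171 and that of the other members -0.0885 to -0.0055. Of 31 named genes 16 kept their sign under each alternative that gave a value and 15 did not. Probe sets below the floor gave none, among them the lowest of Psme3. With the mean of probe sets Psma5 was at -0.0058, and with the probe set of lowest mean Psmb3 was at -0.062, Psmc4 at -0.033 and Psmc2 at 0.031. Genes that turned sign when lines or pairs were left out had these ranges: Psmb8 -0.0465 to 0.76, Psmb10 -0.059 to 0.27, Psmb6 -0.12 to 0.18, Psmb7 -0.074 to 0.11, Psma5 -0.065 to 0.13, Psmb3 -0.0032 to 0.135, Psmc4 -0.073 to 0.19, Psmd2 -0.0885 to 0.0375, Psmd8 -0.052 to 0.30, Psmd9 -0.084 to 0.25, Tap1 -0.15 to 0.46, Irf1 -0.012 to 0.094, Nfe2l1 -0.009 to 0.0865 and Pomp -0.027 to 0.12. Leaving out 1 line of a pair sets that pair's level against the other group, which these ranges include. With only whole pairs left out, Psmb8, Psmb10, Psmb3, Psmd8 and Irf1 kept their sign, and the other genes of this list still turned sign. The cause of other reversals was not tested.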
